A study of Mus musculus with 2 samples.

Results

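The zinc finger factors Snai1 (Snail) and Snai2 (Slug), the basic helix-loop-helix factors Twist1 and Twist2, and the zinc finger homeobox factors Zeb1 and Zeb2 are the transcription factors most often named as inducers of epithelial-mesenchymal transition (EMT) and of its endothelial counterpart (EndMT). These 6 genes were chosen by name, and all 6 have a row in both libraries, among 20468 genes listed for the normal and 20473 for the fibrosis library. The counts come from scRNA-seq with 10x Chromium 3′ chemistry of non-parenchymal cells (NPCs) of mouse liver, the cells other than hepatocytes, from 1 normal and 1 fibrotic male C57BL/6 mouse, with 1 library each. Mice were 8 weeks old at the start, and for 6 weeks received 2 injections a week of 0.6 µl per g of body weight, of olive oil alone in the normal group and of 15% carbon tetrachloride (CCl4) in olive oil in the fibrosis group, with cells taken 48 h after the last injection. Hepatocytes and debris were depleted by low-speed and density-gradient centrifugation. A difference between the libraries is therefore a difference between 1 mouse and 1 other mouse, no test was made, and no p-value is given.

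The Snail, Twist and Zeb factors bind E-box sequences, of which CAGGTG is the form best known for the Snail and Zeb families, and repress epithelial and junction genes such as Cdh1 (E-cadherin) through corepressors including CtBP. The same factors have other duties: Zeb2 takes part in the identity of macrophages, dendritic cells, NK and T cells, Zeb1 in T cell development, and Twist proteins in mesenchymal and bone development. In the liver, quiescent hepatic stellate cells (HSCs) and portal fibroblasts (PFs) are mesenchymal cells that give rise to myofibroblasts (MFs), while liver sinusoidal endothelial cells (LSECs) line the sinusoid, and the study asked whether LSECs acquire mesenchymal features in fibrosis.

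Of the 6 genes 5 are placed here in the genome (GRCm38, GENCODE annotation): Snai1 at chr2:167538195-167542814 on the plus strand, Snai2 at chr16:14705852-14709385 on the plus strand, Twist1 at chr12:33957671-33959829 on the plus strand, Twist2 at chr1:91801461-91848028 on the plus strand and Zeb2 at chr2:44983632-45117395 on the minus strand. Since Twist1 and Twist2 are close paralogues and the study writes Snail, Slug and Twist, its qRT-PCR primers for these names and for Zeb2 are shown here, to fix which gene each name stands for. Position and primers of Zeb1 are not given here. Capitals in the last line mark the bases at which the Twist2 transcript differs from the Twist forward primer.
Snail forward: cacacgctgccttgtgtct
Snail reverse: ggtcagcaaaagcacggtt
Slug forward: cagcgaactggacacacaca
Slug reverse: atagggctgtatgctcccgag
Twist forward: ggacaagctgagcaagattca
Twist reverse: cggagaaggcgtagctgag
Zeb2 forward: aaacgtggtgaactatgacaacg
Zeb2 reverse: cttgcagaatctcgccactg
Twist2 at the Twist forward primer: TgacaagctCagcaagatCca
The Snail pair matched Snai1 alone, in coding sequence from exon 2 to exon 3 (133 bases of transcript, chr2:167539114-167541946), and the Slug pair matched Snai2 alone, in coding sequence from exon 1 to exon 2 (111 bases, chr16:14706030-14706798). The Twist forward primer matched Twist1 alone, and the Twist reverse primer matched Twist1 and Twist2. Together they bound 146 coding bases of Twist1 exon 1 (chr12:33958409-33958554). The Zeb2 pair matched Zeb2 alone (245 bases of transcript, chr2:45022865-45110020). Against Twist2 the forward primer had 3 mismatches over its 21 bases, G1T, G10C and T19C, counted from 1 at the primer's 5′ end with the primer's base given before the position. "Twist" in the study's primer set thus names Twist1, and the UMI counts below keep Twist1 and Twist2 apart as separate rows.

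The 250 bases before the start of Snai1 (RefSeq, GRCm38.p6, chr2:167537945-167538194, plus strand) are shown because this window held the E-box letters, in capitals, and those matched for Twist1, Twist2 and Zeb2 did not.
Snai1 upstream: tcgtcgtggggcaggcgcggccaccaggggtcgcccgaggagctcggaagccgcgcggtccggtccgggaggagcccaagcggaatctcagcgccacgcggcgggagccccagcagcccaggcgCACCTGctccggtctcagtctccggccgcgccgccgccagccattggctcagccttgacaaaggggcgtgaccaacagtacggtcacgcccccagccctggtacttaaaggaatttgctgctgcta
The motif was searched on both strands, which is why it reads as its reverse complement here, and was found at position -126 from the start. The other windows held 0 matches. Among 32851 promoter windows of the same length, 17.2% held the motif, so a match in 1 of these genes is no more than a description.

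Each library was clustered by itself, the 6 factors were held out of the clustering and of the naming, and a class is called "like" a cell type from its marker genes. There were 1730 normal and 1426 fibrosis LSEC-like cells, with 17 of 17 endothelial markers over 2 times the rest of the library in both. The class differed in make-up: its fibrosis part held 96 cycling cells and 160 led by haemoglobin genes, and its normal part sub-clusters of 361 and 160 cells with hepatocyte genes such as Apoh and C8a among their leading genes, and 20 cells led by haemoglobin genes. HSC/MF-like cells numbered 62 and 130 (24 of 24 markers in both) and PF-like cells 44 and 109 (17 and 16 of 18 markers). The mesothelial-like class, the liver's surface layer, held 45 and 48 cells, Kupffer-cell-like macrophages 212 and 247, and lymphoid cells, which join B-cell-like cells and NK/T-cell-like cells, 1593 and 1334. A level is the count of a gene's unique molecular identifiers (UMIs, each standing for 1 captured RNA molecule) per 10000 UMIs of the class. Levels, ratios and shares are followed in parentheses by exact 95% intervals, which cover counting error only and neither the spread between mice nor that between preparations. Since 3′ counts depend on the 3′ end of each transcript, levels are compared between classes for 1 gene and not between genes.

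Lymphoid cells served as the measure of RNA from other cells for Snai1, Snai2, Twist1 and Twist2. For Twist1 this measure is not clean, since effector T cells are known to express it. That measure differed between the libraries: all 17 endothelial markers had UMIs in lymphoid cells of both, with a summed level of 38.1 in the normal library and 61.0 in the fibrosis library, against 293 and 255 in LSEC-like cells. In erythroid-like barcodes the same sum went from 29.5 (399 barcodes, median 3388 UMIs) to 110 (602 barcodes, median 976 UMIs), while their erythroid markers went from 6180 to 116. The 24 HSC/MF markers had a summed level of 2.91 and 16.3 in lymphoid cells. Other RNA moved the other way, with hepatocyte markers from 216 to 21.8 in lymphoid and from 141 to 11.5 in LSEC-like cells, and erythroid markers from 83.3 to 2.98 and from 42.6 to 3.81. Of the fibrosis lymphoid cells 491 were in clusters led by immunoglobulin genes, shallower than the rest, with no counterpart among the normal ones, and without them the lymphoid level in the fibrosis library was 0.144 in place of 0.184 for Snai1, 0.0702 in place of 0.0919 for Snai2 and 0.289 in place of 0.452 for Twist1. Median depth was 3173 UMIs in normal and 2234 in fibrosis lymphoid cells, and 5102 and 7580.5 in LSEC-like cells. LSEC-like cells of the fibrosis library held 1.51 times as many UMIs per cell as those of the normal library, a shift of 0.60 on the log2 scale that a count per cell, unlike a level per 10000, gives to every gene.

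**Figure D1:**
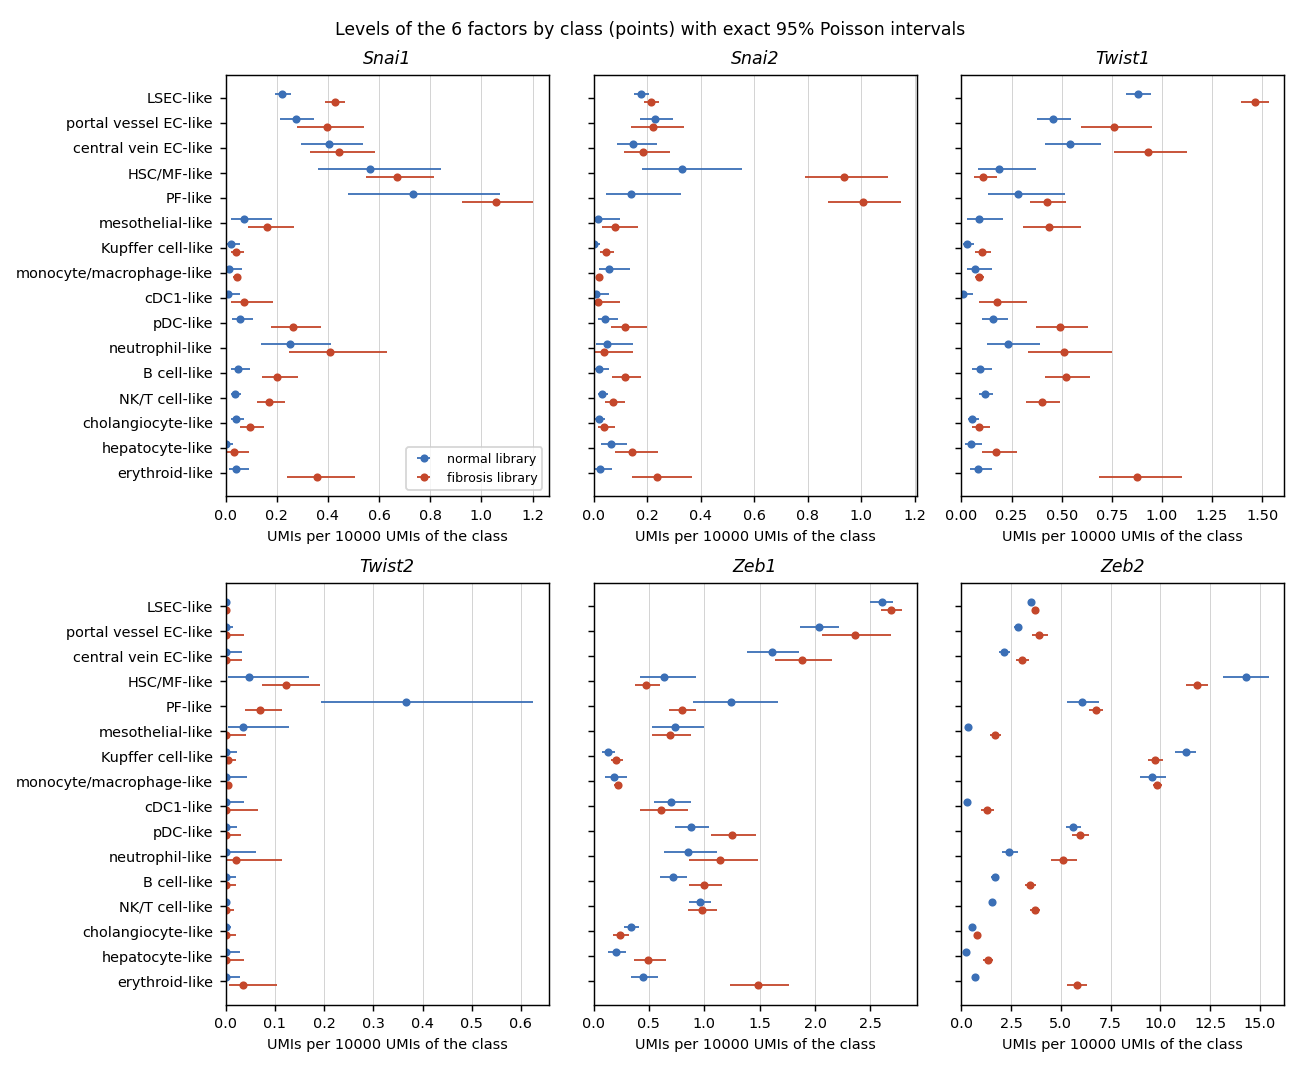
Level of each factor (UMIs per 10000 UMIs of the class, horizontal axis, scaled for each gene) in 16 classes of the normal (blue) and fibrosis (red) library, with exact 95% Poisson intervals as bars. Erythroid-like barcodes are shown as a further measure of RNA from other cells. Twist1 and Zeb1 reach their highest levels in LSEC-like cells, Zeb2 and Twist2 in the mesenchymal or myeloid classes, and Snai1 in PF-like cells at 0.731 in the normal library and 1.06 in the fibrosis library.

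Snai1, the family's best known repressor of E-cadherin, was highest in fibroblast and stellate cells in both libraries. In PF-like cells its level was 0.731 (0.478-1.07) in the normal library and 1.06 (0.924-1.20) in the fibrosis library, the top of the order in each. HSC/MF-like cells followed with 0.566 (0.362-0.842) and 0.671 (0.548-0.813). The intervals of these classes overlapped in the normal library, and in the fibrosis library the HSC/MF-like level was 0.635 times (0.498-0.804) the PF-like level. Between libraries, the ratio of fibrosis over normal was 1.45 (0.961-2.26) in PF-like and 1.19 (0.755-1.93) in HSC/MF-like cells, and both intervals hold 1. In the normal PF-like cells 50.0% of the 26 Snai1 UMIs came from 3 cells.

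LSEC-like cells held less Snai1 than these classes, and their level was higher in fibrosis. In LSEC-like cells it was 0.221 (0.192-0.254; 208 UMIs) in the normal library and 0.427 (0.390-0.466; 499 UMIs) in the fibrosis library, a ratio of 1.93 (1.64-2.28). Sinusoidal cells named by markers of zone 1, next to the portal tract, had a ratio of 1.56 (1.03-2.40), and zone 2/3 is not compared because its sub-clusters differed in make-up between the libraries. The portal-vessel-like endothelial cells went from 0.274 to 0.395 (ratio 1.44, 0.947-2.16) and the central-vein-like ones from 0.402 to 0.443 (1.10, 0.724-1.68). In the fibrosis library LSEC-like, portal-vessel-like and central-vein-like levels had overlapping intervals, and all were below PF-like cells, with LSEC-like cells at 0.404 times (0.345-0.474) the PF-like level.

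Lymphoid cells moved the same way as LSEC-like cells for Snai1. Their level was 0.0407 (24 UMIs) in the normal library and 0.184 (74 UMIs) in the fibrosis library, a ratio of 4.52 (2.82-7.49), and the LSEC-like level stood 5.44 times (3.56-8.69) above it in the normal library and 2.32 times (1.81-3.00) in the fibrosis library. With each cell thinned to 1000 UMIs, 2.43% of normal and 4.16% of fibrosis LSEC-like cells had a Snai1 UMI, beside 0.126% and 1.83% of lymphoid cells. Without thinning the shares were 10.3% and 26.3%, beside 1.44% and 5.10%. Subtracting the lymphoid UMIs per cell, which made up 12.5% and 15.9% of the LSEC-like values, left a ratio of 1.85 in LSEC-like cells. Erythroid-like barcodes went from 0.0386 to 0.355 (9.21, 3.54-30.4), a ratio of 3.98 counted per cell. Their level in the fibrosis library overlaps the LSEC-like interval, but they held 0.0498 Snai1 UMIs per cell there against 0.350 in LSEC-like cells. Without the cycling, haemoglobin-led and hepatocyte-gene-led sub-clusters the LSEC-like ratio was 1.83 (1.53-2.19). Over 13 other settings it ran from 1.44, with a mitochondrial limit of 5%, to 2.91, counted per cell. Among immune cells, neutrophil-like cells held 0.250 and 0.408 and Kupffer-cell-like cells 0.0191 and 0.0411, the latter below the lymphoid level in the fibrosis library (0.223 times, 0.107-0.423).

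Snai2, which like Snai1 represses through E-boxes and is known from neural crest and mesenchymal cells, was higher in fibrosis in the stellate and fibroblast classes. In HSC/MF-like cells its level was 0.330 (0.180-0.554; 14 UMIs) in the normal library and 0.935 (0.789-1.10; 145 UMIs) in the fibrosis library, a ratio of 2.83 (1.64-5.31). PF-like cells had 0.141 (0.0456-0.328; 5 UMIs) and 1.01 (0.877-1.15; 218 UMIs), a ratio of 7.16 (3.02-22.3). The fibrosis PF-like class joined sub-clusters that differed widely in Snai2, as given below, with the smaller sub-cluster under the normal PF-like level. With so few normal UMIs the PF-like ratio ran from 3.23, after thinning to 1000 UMIs per cell, to 28.2, without the 3 cells with most Snai2 UMIs in each library, while the HSC/MF-like ratio ran from 1.91 to 4.94. In the normal library the PF-like level was below the endothelial levels with overlapping intervals, and in the fibrosis library PF-like and HSC/MF-like cells stood at the head of the order with no difference beyond counting error (HSC/MF-like over PF-like 0.930, 0.748-1.15). After thinning, 3.23% of normal and 10.9% of fibrosis HSC/MF-like cells and 2.27% and 6.42% of PF-like cells had a Snai2 UMI, beside 0.377% and 1.07% of lymphoid cells. Unthinned shares were 19.4% and 50.8% in HSC/MF-like cells, 9.09% and 60.6% in PF-like cells and 1.004% and 2.55% in lymphoid cells, whose depth is lower.

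In each endothelial class the Snai2 ratio of fibrosis over normal had an interval that held 1. LSEC-like cells had 0.178 (0.152-0.207; 167 UMIs) in the normal library and 0.215 (0.190-0.244; 252 UMIs) in the fibrosis library, a ratio of 1.21 (0.992-1.48) whose interval holds 1. Portal-vessel-like cells had 0.230 and 0.223, and central-vein-like cells 0.149 and 0.186. The LSEC-like level was 0.539 times (0.312-1.01) the HSC/MF-like level in the normal library and 0.230 times (0.187-0.285) in the fibrosis library. Lymphoid cells held 0.0288 (17 UMIs) and 0.0919 (37 UMIs), a ratio of 3.19 (1.75-6.04), and the HSC/MF-like level stood 11.4 times (5.22-24.7) above them in the normal library and 10.2 times (7.05-15.02) in the fibrosis library. LSEC-like cells were at 6.17 times (3.74-10.8) the lymphoid level in the normal library and at 2.34 times (1.65-3.41) in the fibrosis library. In the thinned data the share of LSEC-like cells with a Snai2 UMI was 1.85% in the normal library and 1.90% in the fibrosis library.

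Twist1, a basic helix-loop-helix factor of mesoderm, had its highest level of any class in LSEC-like cells, in both libraries. It was 0.882 (0.823-0.944; 828 UMIs) in the normal library and 1.46 (1.39-1.53; 1712 UMIs) in the fibrosis library, a ratio of 1.66 (1.53-1.81). Central-vein-like cells went from 0.542 to 0.931 (1.72, 1.24-2.39) and portal-vessel-like cells from 0.457 to 0.759 (1.66, 1.23-2.24). Over 13 alternatives the LSEC-like ratio ran from 1.59, without the cycling, haemoglobin-led and hepatocyte-gene-led sub-clusters, to 2.51. Over 12 alternatives it ran from 1.40 to 2.55 in portal-vessel-like and from 1.03 to 3.38 in central-vein-like cells, the last at a Leiden resolution of 1.5 and after thinning. Erythroid-like barcodes, which are not known for Twist1, went from 0.0849 to 0.876 (10.3, 5.45-21.6) and so stood above portal-vessel-like cells in the fibrosis library, with overlapping intervals. Per cell they held 0.123 Twist1 UMIs there, lymphoid cells 0.136 and LSEC-like cells 1.20. Counted per cell the erythroid-like ratio was 4.46. The LSEC-like level was 1.93 times the portal-vessel-like level in both libraries (1.59-2.37 in the normal, 1.53-2.46 in the fibrosis library). Zone 1 sinusoidal cells had a ratio of 1.42.

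Stellate cells held little Twist1, and the fibroblast class had less than LSEC-like cells. HSC/MF-like cells had 0.189 (8 UMIs) in the normal library and 0.110 (17 UMIs) in the fibrosis library, where the lymphoid level was higher, 0.452 (0.389-0.523), so the HSC/MF-like value was 0.242 times (0.138-0.399) the lymphoid one. In the normal library it was 1.71 times (0.709-3.57) the lymphoid one. PF-like cells had 0.281 (10 UMIs) and 0.425 (92 UMIs), and mesothelial-like cells 0.0893 (5 UMIs) and 0.434 (38 UMIs), which in the fibrosis library were 0.939 times (0.723-1.21) and 0.961 times (0.659-1.37) the lymphoid level. Without the immunoglobulin-led clusters the lymphoid level there was 0.289 (0.227-0.362), below both values. In the normal library the PF-like level was 2.55 times (1.17-4.997) the lymphoid one. Counted per cell these deeper classes held more than lymphoid cells, 0.844 and 0.792 UMIs against 0.136 in the fibrosis library, and subtraction of the lymphoid UMIs per cell left levels of 0.356 and 0.360. HSC/MF-like cells held 0.131 UMIs per cell there. The lymphoid level itself was 0.110 (65 UMIs) in the normal library, which gives a ratio of 4.10 (3.08-5.53). LSEC-like cells thus stood 8.00 times (6.21-10.5) above lymphoid cells in the normal library and 3.24 times (2.78-3.79) in the fibrosis library, and subtraction of the lymphoid UMIs per cell left a ratio of 1.61. The thinned share of cells with a Twist1 UMI was 6.59% and 11.7% in LSEC-like cells and 0.880% and 4.13% in lymphoid cells (unthinned 25.0% and 45.5%, and 3.45% and 10.3%). In the fibrosis library the LSEC-like level was 13.3 times (8.31-23.0) that of HSC/MF-like cells.

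Twist2, the paralogue also called Dermo1 and known from dermal fibroblasts, was scarce and had its highest levels in mesenchymal classes. The whole normal library held 21 Twist2 UMIs and the whole fibrosis library 113. PF-like cells had 0.366 (0.195-0.625; 13 UMIs) in the normal library and 0.0692 (0.0387-0.114; 15 UMIs) in the fibrosis library, a ratio of 0.189 (0.0840-0.432), or of 0.466 counted per cell. HSC/MF-like cells had 0.0471 (2 UMIs) and 0.123 (0.0738-0.191; 19 UMIs), a ratio of 2.60 with a counting interval of 0.627-23.0. The cycling mesenchymal sub-clusters had 3 UMIs in the normal library and 44 in the fibrosis library. They are not set against each other, since the normal one held more endothelial RNA (summed marker level 151, against 67.2) and had Cxcl13, Mmp12, Ngp and Ltf among its leading genes. The order of the classes therefore differed, with PF-like cells alone at the head in the normal library and PF-like, HSC/MF-like and cycling mesenchymal cells overlapping in the fibrosis library.

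Twist2 was not detected in lymphoid cells, where 0 UMIs allow a level of up to 0.00509 in the normal library and 0.00745 in the fibrosis library. LSEC-like cells had 1 UMI in each library, and portal-vessel-like and central-vein-like cells had 0. Against the lymphoid limit of 3 counts, PF-like cells were at least 71.9-fold higher in the normal library and at least 9.29-fold higher in the fibrosis library, and HSC/MF-like cells at least 16.4-fold higher in the fibrosis library. With the counting error of both classes the exact intervals of these ratios began at 50.5, 6.66 and 12.1. The class with the most Twist1 was thus one in which Twist2 was at the limit of detection. Part of Twist2 (1477 bases) is overlapped on the other strand by the antisense gene Gm29100, and the use of strand in counting is not given in the sources used here.

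**Figure D2:**
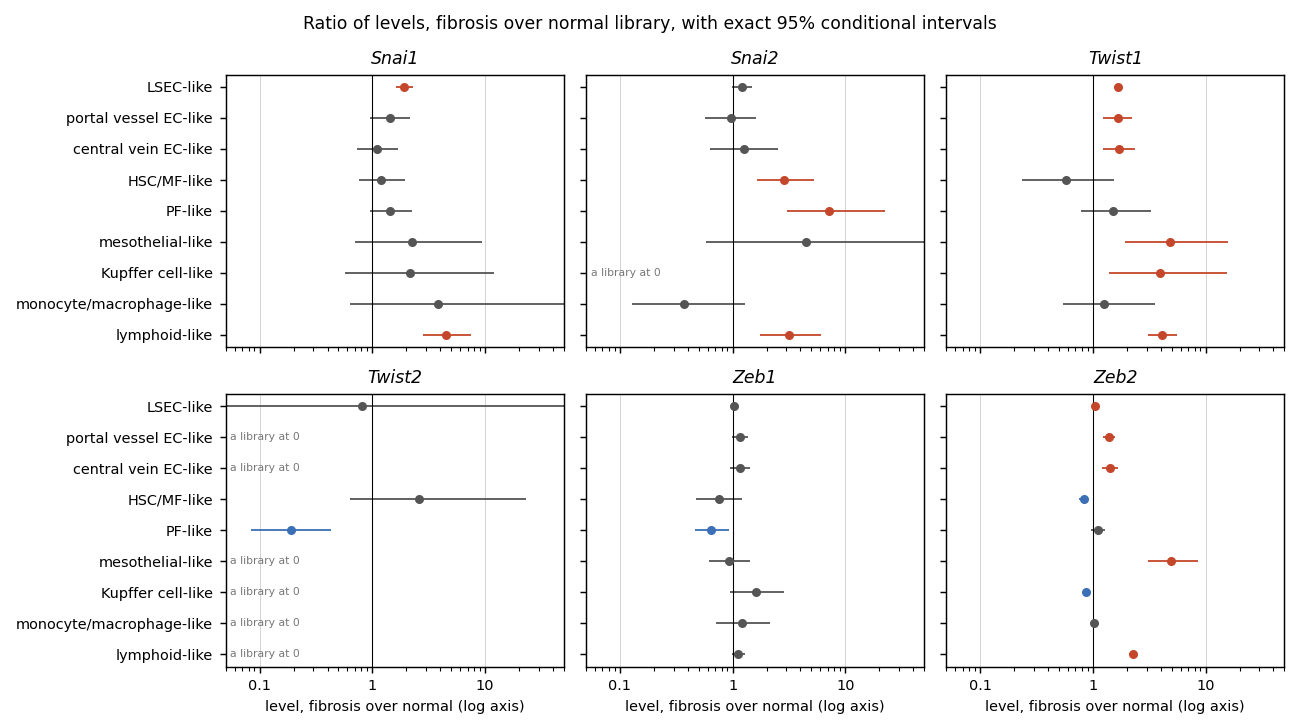
Ratio of the level in the fibrosis over the normal library (log axis, 1 marked by the vertical line) for each factor in 9 classes, with exact 95% conditional intervals as bars. Red points have an interval above 1, blue points below 1 and grey points an interval that holds 1, and Snai2 in PF-like cells (7.16) and Twist2 in PF-like cells (0.189) lie on opposite sides.

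Zeb1 was highest in endothelial cells and nearly equal in the libraries. LSEC-like cells had 2.60 (2.50-2.70; 2442 UMIs) in the normal library and 2.68 (2.59-2.78; 3141 UMIs) in the fibrosis library, a ratio of 1.03 (0.979-1.09). Portal-vessel-like cells followed with 2.03 and 2.36 and central-vein-like cells with 1.61 and 1.88. Lymphoid cells express Zeb1 and had 0.883 and 0.989, so they are no measure of foreign RNA here. Of classes not known for Zeb1, cholangiocyte-like cells, the bile duct epithelium, had 0.339 and 0.239, hepatocyte-like cells 0.2003 and 0.493 (2.46, 1.49-4.17) and erythroid-like barcodes 0.448 and 1.48 (3.31, 2.40-4.60). Counted per cell the hepatocyte-like ratio was 1.67 and the erythroid-like ratio 1.43.

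The stellate class had low Zeb1, at 0.636 (27 UMIs) in the normal library and 0.477 (74 UMIs) in the fibrosis library, and LSEC-like cells stood 4.09 times (2.80-6.21) and 5.63 times (4.47-7.18) above it. In the fibrosis library this was no more than in hepatocyte-like cells. PF-like cells had 1.24 (0.899-1.66; 44 UMIs) and 0.798 (0.684-0.927; 173 UMIs), a ratio of 0.645 (0.461-0.920). Counted per cell the PF-like ratio was 1.59, as the fibrosis PF-like cells held 2.46 times as many UMIs. Mesothelial-like cells had 0.732 and 0.686. Kupffer-cell-like cells had the lowest level of the normal library, 0.127, and 0.205 in the fibrosis library. B-cell-like cells went from 0.713 to 1.001 (1.40, 1.11-1.78) and NK/T-cell-like cells from 0.959 to 0.980 (1.02, 0.864-1.21).

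Zeb2 followed another order, with the stellate and macrophage classes at its head. HSC/MF-like cells had the highest level of any class in both libraries, 14.3 (13.2-15.5; 606 UMIs) in the normal library and 11.8 (11.3-12.4; 1833 UMIs) in the fibrosis library, a ratio of 0.828 (0.755-0.909). Kupffer-cell-like cells had 11.3 and 9.73 (0.864, 0.813-0.918) and monocyte/macrophage-like cells 9.60 and 9.85 (1.03, 0.955-1.10). The HSC/MF-like level was 1.27 times (1.15-1.39) the Kupffer-cell-like level in the normal library and 1.21 times (1.14-1.29) in the fibrosis library. PF-like cells had 6.07 and 6.77 (1.11). Counted per cell instead, both directions turned, to 1.44 in HSC/MF-like cells, which held 1.74 times as many UMIs per cell, and to 1.26 in Kupffer-cell-like cells, which held 1.46 times as many. The Kupffer-cell-like ratio was also above 1, at 1.11, with a mitochondrial limit of 5% in place of 10%.

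Endothelial cells had less Zeb2 than the stellate and macrophage classes. LSEC-like cells had 3.51 (3.39-3.63; 3297 UMIs) in the normal library and 3.68 (3.57-3.79; 4307 UMIs) in the fibrosis library, a ratio of 1.05 (1.002-1.10) whose interval held 1 without the cycling, haemoglobin-led and hepatocyte-gene-led sub-clusters (0.998-1.10). They stood at 0.246 times (0.225-0.268) and 0.311 times (0.295-0.329) the HSC/MF-like level. They were at 2.21 times (2.06-2.38) the lymphoid level in the normal library and at 1.02 times (0.965-1.09) in the fibrosis library, where erythroid-like barcodes, at 5.79, were above them. Portal-vessel-like cells went from 2.82 to 3.92 (1.39) and central-vein-like cells from 2.16 to 3.05 (1.41).

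Large ratios of Zeb2 were found in classes that had little of it in the normal library. Mesothelial-like cells went from 0.339 (19 UMIs) to 1.69 (148 UMIs), a ratio of 4.99 (3.08-8.52), and dendritic cells of the cDC1-like class from 0.273 to 1.29, a ratio of 4.73 (3.00-7.65). Over 10 alternatives the mesothelial-like ratio ran from 3.42 to 8.85 and the cDC1-like ratio from 2.01, with 20 principal components, to 28.8, with a mitochondrial limit of 5%. Hepatocyte-like cells, which are not known for Zeb2, went from 0.240 (30 UMIs) to 1.31 (128 UMIs), a ratio of 5.47 (3.65-8.44), and erythroid-like barcodes from 0.664 to 5.79 (8.73, 6.93-11.1). Counted per cell these ratios were 3.71 and 3.77. Cholangiocyte-like cells, also low, went from 0.525 to 0.766 (1.46, 1.16-1.84), a ratio that turned to 0.696 after thinning. The part of RNA from other cells in the mesothelial-like and cDC1-like ratios was not tested. B-cell-like cells had a ratio of 2.05 (1.78-2.36), NK/T-cell-like cells of 2.40 (2.16-2.66) and neutrophil-like cells of 2.14 (1.73-2.64). Zeb2os, an antisense gene within Zeb2 (3381 bases, chr2:45110707-45114087), could share reads with it if strand was not used.

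How many of the factors differed by 2-fold depended on the class. Genes with at least 0.1 UMIs per 10000 in either library of a class were compared, and a gene was counted as higher or lower when its ratio was at least 2 or at most 0.5. In LSEC-like cells 5.2% of 9526 genes were higher and 5.86% lower, and of 5 factors compared 0 were higher and 0 lower, with Snai1 nearest at 1.93. At 1.5-fold 2 of 5, Snai1 and Twist1, were higher, where 11.9% of genes were. Portal-vessel-like cells had 6.36% higher and 6.93% lower of 9788 genes, and central-vein-like cells 8.52% and 9.76% of 9799, again with 0 of 5 factors either way. In HSC/MF-like cells 10.4% of 10008 genes were higher and 10.6% lower, and 2 of 6 factors were higher, Snai2 and Twist2. Twist2, with 2 normal UMIs, passed the minimum through the fibrosis library alone and so had to be higher. In PF-like cells 16.4% of 10676 genes were higher and 11.1% lower, and of 6 factors Snai2 was higher and Twist2 lower. Twist2 reached the minimum there through the normal library alone, so its ratio could only lie below 1.

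No such count is given for mesothelial-like and immune classes, where several factors reached the minimum through the fibrosis library alone, so that their ratios could only lie above 1. In mesothelial-like cells these were Snai1 (4 and 14 UMIs) and Twist1, within counting error of the lymphoid level in the fibrosis library, and subtraction of lymphoid UMIs per cell left ratios of 2.18 and 6.36. Without the immunoglobulin-led clusters the lymphoid levels there were 0.144 and 0.289, against mesothelial-like levels of 0.160 and 0.434. In B-cell-like cells Snai1 went from 0.0498 to 0.202, Snai2 from 0.0221 to 0.116 and Twist1 from 0.0940 to 0.521. In NK/T-cell-like cells Snai1 went from 0.0367 to 0.1699, and in pDC-like cells Snai1 from 0.0569 to 0.262 and Snai2 from 0.0443 to 0.118. Twist1 reached the minimum in both libraries in these classes, and went from 0.117 to 0.401 in NK/T-cell-like and from 0.158 to 0.490 in pDC-like cells. Snai1, Snai2 and Twist1 had ratios of 9.21, 10.2 and 10.3 in erythroid-like barcodes, and of 3.98, 4.42 and 4.46 counted per cell. The median log2 ratio of all genes compared was 0.068 in LSEC-like, 0.164 in lymphoid, 0.037 in HSC/MF-like cells, 0.131 in mesothelial-like cells and 0.151 in PF-like cells.

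Among the mesenchymal sub-clusters of the fibrosis library, the factors did not follow the class names evenly. One PF-like sub-cluster of 80 cells, led by Mfap4, Fgl2 and Ltbp2, had the highest Snai1 and Snai2 of all, 1.53 and 1.58, with Twist1 at 0.189 and Zeb2 at 8.31. The other PF-like sub-cluster of 29 cells, led by Fndc1, Cxcl5 and Clca3a2, had Snai1 at 0.319, Snai2 at 0.106, Twist1 at 0.792 and Zeb2 at 4.36. The ratios of Snai2 and Twist2 in PF-like cells thus set 1 normal sub-cluster, led by Dpt, Sfrp1 and Gsn, beside a mixture of these. The summed level of the 18 PF markers was 162 in normal and 75.2 in fibrosis PF-like cells, none at 0, and that of the 24 HSC/MF markers, which include Col1a1 and Dcn, was 323 and 359.

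The stellate sub-clusters of the fibrosis library differed in the same sense for the Snail genes. In the sub-cluster of 57 cells, with Col1a1 at 113, Snai1 was 0.852 and Snai2 1.05, and in that of 73 cells, with Col1a1 at 19.1, they were 0.332 and 0.720. Zeb2 ran the other way, at 10.8 and 13.6. Immune genes stood among the leading genes of these sub-clusters, S100a8, S100a9 and Il1b in the fibrosis sub-cluster of 73 cells and Ighm, Ccl2 and Ccl5 in the normal HSC/MF-like cells, beside stellate markers such as Lrat, Hhip, Colec10 and Vipr1. Cycling mesenchymal sub-clusters, left unnamed for type, had Snai2 at 0.481 (0.354-0.640) in the normal library. This was the highest of its classes, with an interval that overlapped that of HSC/MF-like cells. In the fibrosis library they had 0.810, and as for Twist2 these values are not set against each other.

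**Figure D3:**
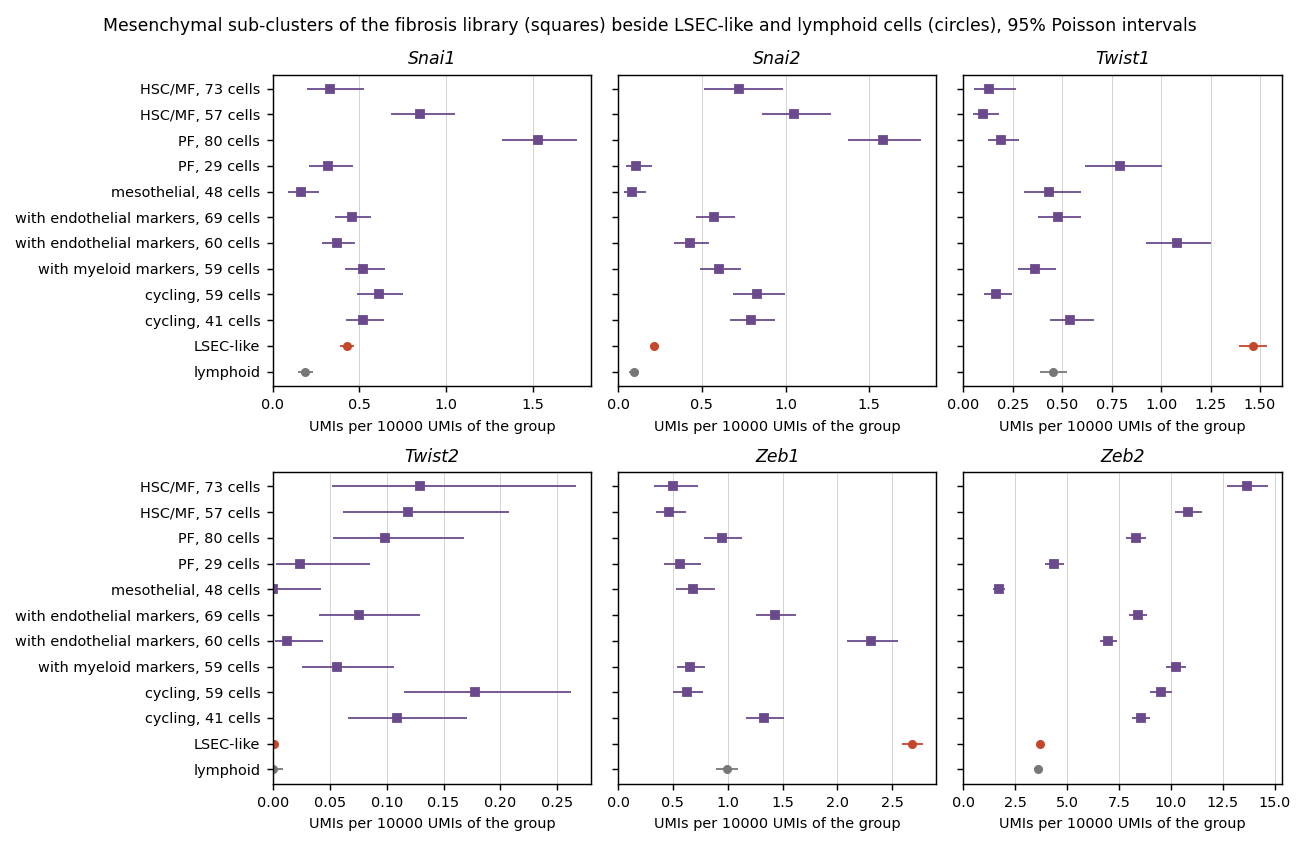
Level of each factor (UMIs per 10000 UMIs, horizontal axis, scaled for each gene) in the 10 mesenchymal sub-clusters of the fibrosis library (squares), beside LSEC-like (red circle) and lymphoid cells (grey circle), with exact 95% Poisson intervals. The PF sub-cluster of 80 cells is highest for Snai1 (1.53) and Snai2 (1.58), and the sub-cluster of 60 cells with endothelial markers is nearest to LSEC-like cells for Twist1 (1.08) and Zeb1 (2.31).

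Mesenchymal sub-clusters with endothelial markers, 69 and 60 cells of the fibrosis library, bear most directly on the question of the study. Together their levels were 0.412 (0.346-0.487) for Snai1, 0.502 (0.429-0.583) for Snai2, 0.770 (0.679-0.870) for Twist1, 0.0448 for Twist2, 1.86 (1.72-2.01) for Zeb1 and 7.70 (7.41-8.00) for Zeb2. For the last 5 genes this lay between the LSEC-like and HSC/MF-like levels of the same library, and for Snai1 it did not exceed either. None of the 6 factors was above both LSEC-like and HSC/MF-like cells. The sub-cluster of 60 cells, whose leading genes were endothelial (Gpr182, Kdr, Dnase1l3), had Twist1 at 1.08 and Zeb1 at 2.31, and that of 69 cells had 0.477 and 1.43.

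Depth and doublet score moved with these sub-clusters. Their 129 cells had a median of 23549 UMIs, against 7580.5 in LSEC-like and 10907 in HSC/MF-like cells, and a median doublet score of 0.0981, against 0.0534 and 0.0614. Endothelial markers had a summed level of 166 in them and HSC/MF markers of 207, against 255 and 10.9 in LSEC-like and 20.4 and 519 in HSC/MF-like cells. The study's methods state that doublets were removed with Scrublet. It also reports low doublet scores in all its clusters. The deposited cells, 8130 and 6437, are as many as the study clustered, though 659 and 305 of them were over its mitochondrial limit. Whether they are the cells left by the doublet step is not given in the sources used here. Whether some of these barcodes held more than 1 cell was not tested. The corresponding sub-cluster of the normal library had 14 cells, led by Ccl21a, Mmrn1 and Prox1, genes known from lymphatic endothelium, and no level is compared with it.

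Within LSEC-like cells, the factors were set beside matrix transcripts by splitting cells on a UMI of Col1a1, Col1a2, Col3a1 or Acta2. The share of LSEC-like cells with such a UMI was 4.80% in the normal library and 93.3% in the fibrosis library, and that of lymphoid cells 4.39% and 87.2%. Col1a1 in LSEC-like cells went from 0.0160 to 1.20 and Col1a2 from 0.0256 to 1.53, and in lymphoid cells they were 0.0305 and 2.26, and 0.0390 and 3.18. By level LSEC-like cells were thus below lymphoid cells. Per cell they were above them in the fibrosis library, with 0.982 Col1a1 UMIs against 0.681 in lymphoid cells and 0.709 in erythroid-like barcodes, and 1.26 Col1a2 UMIs against 0.959 and 1.04. The part of RNA from other cells in these UMIs was not tested.

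Most fibrosis cells of either class held such a UMI and depth differed between the groups split, so that nothing is read from the split about cells that express matrix genes, and the part of depth was not tested. In fibrosis LSEC-like cells the ratio of cells with over the 96 cells without was 1.12 (0.725-1.83) for Snai1, 0.681 (0.416-1.19) for Snai2, 1.03 (0.822-1.31) for Twist1, 1.21 (1.01-1.46) for Zeb1 and 0.991 (0.861-1.15) for Zeb2. Median depth was 7651 UMIs in cells with and 5503 in cells without a matrix UMI. In the normal library, 83 LSEC-like cells with a matrix UMI had 4 Snai1 UMIs (ratio 0.359, 0.0970-0.934), and their Twist1, Zeb1 and Zeb2 ratios were 0.930, 0.955 and 0.910. Among cells without a matrix UMI, Twist1 was at 0.885 (0.824-0.949) in the normal library and at 1.42 (1.12-1.77) in the fibrosis library, and Snai1 at 0.229 (0.199-0.263) and 0.382 (0.237-0.584), where the intervals overlap.

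**Figure D4:**
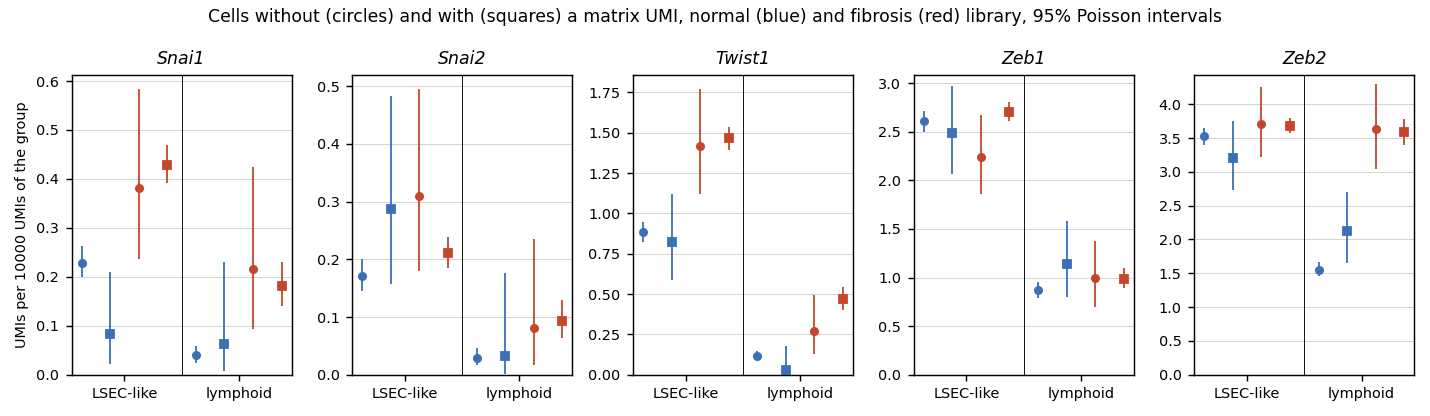
Level of 5 factors (UMIs per 10000 UMIs, vertical axis, scaled for each gene) in LSEC-like and lymphoid cells without (circles) and with (squares) a UMI of Col1a1, Col1a2, Col3a1 or Acta2, in the normal (blue) and fibrosis (red) library, with exact 95% Poisson intervals. Within the fibrosis library the intervals of the LSEC-like groups overlap for every factor shown, least for Zeb1, at 2.24 without and 2.71 with a matrix UMI.

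In LSEC-like cells the partners of the factors and the endothelial junction genes stayed under a 2-fold difference. Of other EMT-associated factors 4 of 11 could be compared, of corepressor partners 7 of 8, of Id proteins, which bind and block basic helix-loop-helix partners, 4 of 4, of factors of protein turnover 5 of 5 and of endothelial junction genes 7 of 7, and in each list 0 genes were higher and 0 lower by 2-fold. Medians of the log2 ratio were 0.144, 0.157, -0.255, 0.113 and -0.0384. Id3 went from 9.62 to 7.31 (0.760, 0.738-0.783) and Id4 from 1.82 to 1.29 (0.708, 0.660-0.759), the lowest ratios among list genes that reached 0.1 UMIs per 10000. Genes of the epithelial antagonist and epithelial junction lists, Cdh1 among them, were too low to compare, 0 of 6 and 0 of 9. Below that minimum, and named after their values were seen, Esrp2 (52 and 12 UMIs, ratio 0.185), Cldn3 (52 and 11, 0.1698), Cldn1 (49 and 14, 0.229), Crb3 (30 and 8, 0.214), Epcam (33 and 15, 0.365), Sox9 (65 and 48, 0.593) and Ajuba (88 and 73, 0.666) had intervals below 1. Prrx1 (2 and 31 UMIs, 12.4, 3.17-107), Foxc2 (2 and 29, 11.6, 2.95-100.7) and Mmp2 (4 and 103, 20.7, 7.83-77.3) had intervals above 1. Lymphoid cells moved the same way for the epithelial genes, from a higher or like normal level: Cldn3 went from 0.0949 to 0.0298 in them, Crb3 from 0.0746 to 0.0348, Cldn1 from 0.0712 to 0.0348, Epcam from 0.0966 to 0.0696 and Esrp2 from 0.0543 to 0.0224. Prrx1 was at 0.0265 in LSEC-like and at 0.0248 in lymphoid cells of the fibrosis library, Mmp2 was lower in LSEC-like cells (0.0880 against 0.171), and Foxc2 was higher (0.0248 against 0.00994). Of mesenchymal genes 6 of the 10 compared were higher (Acta2, Tagln, Col1a1, Col1a2, Col3a1 and Sparc), beside 5.2% of all genes. Acta2, Tagln and the collagens passed the minimum through the fibrosis library alone, and all of these but Sparc were below the lymphoid level in the fibrosis library, though not per cell. Sparc, a matrix-binding glycoprotein, went from 12.0 to 24.2 in LSEC-like cells, beside 1.61 and 7.53 in lymphoid cells.

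HSC/MF-like cells had more of these genes past 2-fold. More of all genes were past it too, 10.4% higher and 10.6% lower, against 5.2% and 5.86% in LSEC-like cells. Prrx1, a homeobox factor of mesenchyme, went from 0.0471 (2 UMIs) to 0.748 (116 UMIs), a ratio of 15.9 (4.30-133), out of 6 of 11 other EMT-associated factors compared. It reached the minimum through the fibrosis library alone, so its ratio could only lie above 1. Sox9, Cdh1 and S100a4 reached it through the normal library alone, so their ratios could only lie below 1. Sox9 was at 0.212 (9 UMIs) and 0.0838 (13 UMIs), a ratio of 0.395 (0.156-1.05) whose interval holds 1. Rcor1 was the only one of 8 corepressors higher and Id1 the only one of 4 Id proteins, beside 10.4% of all genes. These counts of 1 are not read as a result about the lists. Cdh1 was at 0.189 (8 UMIs) and 0.0580 (9 UMIs), with lymphoid cells at 0.180 and 0.243. Of 12 mesenchymal genes 9 were higher and 1 lower, beside 10.4% and 10.6% of all genes, with Col1a1 from 2.22 to 80.2 (36.2, 29.6-44.9) and S100a4 from 0.330 to 0.0774. Col1a1, Col3a1 and Acta2 also belong to the markers that named this class. In PF-like cells 7 of 12 mesenchymal genes were higher, beside 16.4% of all genes, and S100a4 was lower.

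Genes whose levels ran most like each factor over the 47 class-by-library groups were sought among 12330 genes, as a description in which the groups share libraries and free RNA. For Snai1 they were Nid1 (Pearson r = 0.934), Col4a1 (0.928) and Mxra7 (0.927), and for Snai2 Raph1 (0.889), Col4a2 (0.865) and Tmem47 (0.859). Nid1, Col4a1 and Col4a2 encode basement membrane proteins. Twist1 ran with Arhgap23 (0.917), Tspan18 (0.916) and Hspg2 (0.913), and Zeb1 with Pabpc4l (0.912), Plpp1 (0.905) and Flt1 (0.903), the latter a VEGF receptor. Twist2 ran with Ereg (0.892), Fbln7 (0.891) and C1qtnf2 (0.886), and Zeb2 with Dse (0.842), Ifi204 (0.840) and its antisense gene Zeb2os (0.833).

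Among the factors themselves, Twist1 and Zeb1 ran most alike (0.809), followed by Snai1 and Snai2 (0.779). The paralogues of the other families did not, with 0.162 for Twist1 and Twist2 and 0.0346 for Zeb1 and Zeb2. The Twist and Zeb families thus split by cell class in these libraries. Twist1 and Zeb1 were highest in LSEC-like cells, Twist2 in PF-like or other mesenchymal cells and Zeb2 in HSC/MF-like cells, each in both libraries. The Snail family did not split in this way, as Snai1 and Snai2 were both highest in mesenchymal classes.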

How the data were processed

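UMI counts of 1 normal and 1 fibrosis library were analysed. The authors aligned reads to mm10 with Cell Ranger 3.0.1 and deposited counts per gene and barcode without normalization or filtering. Whether counting used strand is not given in the sources used here. The tables hold 8130 and 6437 cells with 44062632 and 53288463 UMIs in total (median 4144.5 and 5619 per cell), and 19219 genes are listed in both. Groups come from the labels, and 0 columns were left unused.

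Cells under 10% mitochondrial UMIs with over 200 genes were kept (7471 and 6132). The tools were scanpy 1.11.5 on Python 3.11.15 with leidenalg 0.10.2 and igraph 0.11.9, pandas 2.3.3 and anndata 0.12.19, scipy 1.17.1 and numpy 2.4.6, matplotlib 3.10.9 and scikit-learn 1.9.0. Per library, Leiden clusters (resolution 0.8, 10 principal components, 20 neighbours) were made on 2000 variable genes without the 6 factors, and a cluster took the class with most markers among its 10 genes of highest fold if 3 markers were raised. Mesenchymal, endothelial and myeloid clusters were clustered again. The joining of marker lists into families, the precedence of a family's own lists, a limit of any excess for raised markers in sub-clusters, the subtraction of lymphoid UMIs, the values without sub-clusters led by cycling, haemoglobin, hepatocyte or immunoglobulin genes and the use of erythroid-like barcodes as a second measure of foreign RNA were chosen after seeing the data. Members, lists and rules were chosen with earlier results of these data known.

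The study's methods state that doublets were excluded with Scrublet, and no further cells were removed as doublets here. Scrublet in scanpy, at an expected rate of 0.06, called 0 cells in each library, so that only its scores are given. Why it called 0 cells was not tested. The libraries shared 15 barcodes (13 after the filter, 1 of the same class). Values are summed counts per 10000 UMIs with exact Poisson intervals, ratios with exact conditional intervals and shares with Clopper-Pearson intervals after thinning to 1000 UMIs, which left out 2 normal and 404 fibrosis cells. A count of 0 is given with a limit of 3 counts. Scripts were tested on simulated data. Genes named besides the 6 factors are those with the 2 largest and 2 smallest ratios of the fixed lists in LSEC-like and HSC/MF-like cells, members of those lists past 2-fold, and for each factor the 3 genes most correlated with it (log2 of the level plus 0.01, genes reaching 0.2). Leading and marker genes of sub-clusters were named after their values were seen. Primer sequences are from the study's supplement, and gene positions from GENCODE on GRCm38.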

Additional observations from a re-analysis of the deposited data

Results flagged for a closer look

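For Zeb1 and Zeb2 the ratio of fibrosis over normal lay on opposite sides of 1 in different classes, with counting intervals that did not hold 1, and these differences between classes were not tested. Zeb1 had a ratio of 0.645 in PF-like cells, against 1.40 in B-cell-like and 1.42 in pDC-like cells. Zeb2 had ratios of 0.828 in HSC/MF-like and 0.864 in Kupffer-cell-like cells. Above 1 stood Zeb2 in LSEC-like (1.05), portal-vessel-like (1.39) and central-vein-like endothelial cells (1.41), in cholangiocyte-like (1.46), B-cell-like (2.05), neutrophil-like (2.14) and NK/T-cell-like cells (2.40), and in cDC1-like (4.73) and mesothelial-like cells (4.99). Counted per cell, the ratios below 1 turned above it, to 1.59 for Zeb1 in PF-like cells and, for Zeb2, to 1.44 in HSC/MF-like and 1.26 in Kupffer-cell-like cells, so that the opposite sides hold for levels per 10000 UMIs alone. Thinning took the cholangiocyte-like ratio to 0.696. Each ratio rests on 1 mouse per condition.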

How the results depend on the processing

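Alternatives were other mitochondrial limits, cluster settings and thinning, counts per cell, filters and folds, and, chosen after seeing the data, subtraction of lymphoid UMIs and removal of cycling, haemoglobin-led and hepatocyte-gene-led sub-clusters from LSEC-like cells and of immunoglobulin-led clusters from lymphoid cells. A ratio is said to turn when its interval does not hold 1 and the alternative lies on the other side of 1. In LSEC-like cells 59 of 70 alternative ratios lay within the counting interval, 11 did not and 0 turned, though Twist2 (1 UMI in each library) crossed 1 once. A mitochondrial limit of 5% gave 1.44 for Snai1, 1.82 for Twist1, 1.23 for Zeb1 and 1.12 for Zeb2. UMIs per cell gave 2.91 for Snai1, 1.83 for Snai2, 2.51 for Twist1, 1.56 for Zeb1 and 1.58 for Zeb2, which follows from the deeper fibrosis cells, and thinning to 1000 UMIs gave 1.85 for Twist1 and 1.15 for Zeb1. In other classes 622 of 706 lay within the interval, 78 did not and 6 turned, and 44 more crossed 1 where the interval already holds it, such as Snai1 in HSC/MF-like and PF-like cells. Turned were Zeb2 in HSC/MF-like cells (1.44 per cell), Zeb1 in PF-like cells (1.59 per cell), Zeb2 in Kupffer-cell-like cells (1.26 per cell and 1.11 at the 5% limit), Snai2 in pDC-like cells (0.694 thinned) and Zeb2 in cholangiocyte-like cells (0.696 thinned). For the thinned values and the 5% limit the cause was not tested. The counts of genes past 2-fold in LSEC-like cells, 495 higher and 558 lower, became 1016 and 989 with a minimum of 0.02, 1727 and 1729 with no minimum, and 1136 and 954 at 1.5-fold. No paired analysis was possible because each condition has 1 library, and leaving out a replicate was not possible for the same reason. Depth limits Twist2 most, with 21 and 113 UMIs in all.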
